A study of Mus musculus with 15 samples.

Results

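The genes described here are 10 components of the transforming growth factor beta (TGF-beta) pathway, chosen by name out of 35519 genes with assigned transcripts. They are the ligand Tgfb1, its carriers Ltbp1 and Nrros, the receptors Tgfbr1 and Tgfbr2, the signal carriers Smad2, Smad3 and Smad4, and the inhibitors Smad7 and Ski. All 10 were found in the authors' table of gene TPM and in the read tables, and 9 of them had enough reads to be tested, Smad4 being the exception.

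They were measured in microglia, the resident macrophages of neural tissue, sorted from mouse retinas as Fcrls+, CD11b+ and Ly6c- cells and sequenced as bulk RNA by SMART-Seq2, a full-length method for few cells. All mice were C57BL/6 and 12 weeks old. The 4 groups were wild-type retinas after a sham injection (n = 4), wild-type retinas after a microbead injection (n = 3), Apoe-/- retinas after a sham injection (n = 4) and Apoe-/- retinas after a microbead injection (n = 4). Microbeads block fluid outflow from the eye and raise its pressure, as a model of glaucoma, and Apoe encodes the lipid carrier apolipoprotein E. The retinas are numbered within a group and are not said to come from separate mice, so p-values measure only how these samples differ among themselves, which may be technical. The gate selects on Fcrls, so cells that no longer carry Fcrls are not represented.

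TGF-beta1 is made as an inactive complex that is held on the cell surface by the protein of Nrros or in the matrix by that of Ltbp1, and is released by integrins. The free ligand binds the type II receptor (Tgfbr2), which activates the type I receptor kinase (Tgfbr1), which in turn phosphorylates Smad2 and Smad3, and these enter the nucleus with Smad4. Smad7 blocks the receptors and Ski holds Smad complexes in a repressive state. In the brain and retina this pathway is known to maintain the homeostatic state of microglia.

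Libraries held 458111 to 714669 reads assigned to genes. Between 40.8 and 74.4% of them lay on 12 gene models of satellite repeats, with group means of 61.3% after sham and 45.2% after microbeads in wild type, with 67.8% after sham and 64.1% after microbeads in Apoe-/-. Levels are therefore compared between groups as CPM (counts per 1e6, here of a library size scaled by the TMM method, which sets the typical gene equal between libraries). That size ran from 236145 reads in Apoe-/- sham library 2 to 1044828 reads in wild-type microbead library 2. On this scale a count of 0 allows a level of up to 2.87 to 12.7 CPM, taking 3 reads as the limit (counting error only). The microglial markers examined (among them P2ry12, Tmem119, Cx3cr1, Fcrls, Csf1r, Sall1, Siglech, Olfml3 and Gpr34) had reads in all 15 libraries. Apoe had 667 to 15125 reads in wild-type and 0 to 6 reads in Apoe-/- libraries. The names of the deposited tables carry a letter, not explained in the labels, that differs between the genotypes, so whatever it stands for and genotype cannot be told apart.

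The receptors were the members best supported by reads, and the ligand, Smad2, Smad4 and Smad7 were near the level at which silent genes were counted. The median level per length over the 15 libraries, in the authors' TPM (transcripts in each 1e6, after division by transcript length), was 18.9 for Tgfbr1, 12.2 for Ltbp1, 10.1 for Tgfbr2, 8.41 for Nrros and 6.27 for Ski. It was 2.77 for Smad3, 2.24 for Smad2, 2.17 for Tgfb1, 1.17 for Smad7 and 0.993 for Smad4. Tgfbr1 thus stood at percentile 95.5 of the genes listed above 0 and Smad4 at percentile 39.6. The place of Ltbp1 rests mostly on a non-coding model of only 519 bases, which was given 153.9 of its 169.9 reads.

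Neighbours in this order mostly changed places between libraries, so that their medians differ by less than the spread. Tgfbr1 exceeded Ltbp1 in 10 of 15 libraries, Ltbp1 exceeded Tgfbr2 in 8, and Tgfbr2 exceeded Nrros in 12. Nrros exceeded Ski in 13 libraries and Ski exceeded Smad3 in 14, the widest step of the order. Smad3 exceeded Smad2 in 9 libraries, Smad2 exceeded Tgfb1 in 8, Tgfb1 exceeded Smad7 in 10 and Smad7 exceeded Smad4 in 8.

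A background level was taken from 1497 olfactory, vomeronasal and taste receptor genes, which microglia are not expected to use. Their mean was 0.479 to 1.35 TPM and their 95th percentile 2.11 to 5.34 TPM, depending on the library. Tgfbr1 lay above that percentile of its own library in 15 of 15 libraries, Tgfbr2, Nrros and Ltbp1 in 14, and Ski in 13. For Ltbp1 this was mostly the level of its short non-coding model. Smad3 did so in 8 libraries, Smad2 in 6, Tgfb1 in 5, Smad4 in 4 and Smad7 in 1. For the ligand, Smad2, Smad4 and Smad7 the level in most libraries was thus below the 95th percentile of genes taken to be silent. Above the mean of those genes lay Smad2 in 15 libraries, Tgfb1 in 12, Smad7 in 11 and Smad4 in 10.

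**Figure D1:**
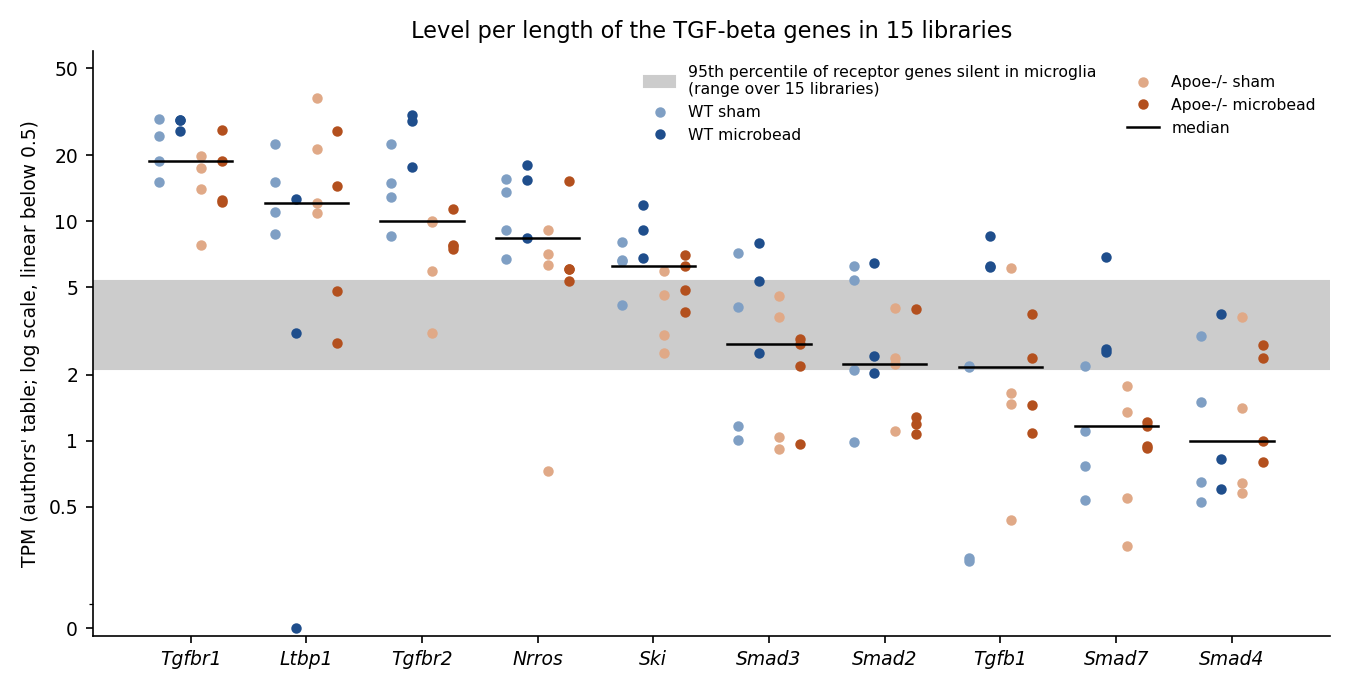
Level per length (TPM in the authors' table, on a log axis that is linear below 0.5) of each gene in every library, with points coloured by group, a black line at the median of 15 libraries and a grey band for the range over libraries of the 95th percentile of receptor genes taken to be silent. Tgfbr1, at a median of 18.9 TPM, lies above the band in all libraries, while the medians of Smad3, Smad2 and Tgfb1 lie inside it and those of Smad7 and Smad4 below it.

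Before the values of the ligand and of Ltbp1 are compared, the transcript models that received their reads have to be named. Tgfb1 lies at chr7:25687002-25705077 on the plus strand (mm10) and has 1 protein-coding model. Of its 134 reads in all 15 libraries, 95.4 were given to a model of a retained intron that lies in intron 1. Only 26.4 reads, 19.7% of the total, were given to the coding model. Ltbp1 lies at chr17:75005568-75392512 on the plus strand and has 6 protein-coding models, which together received 2.26 reads, 1.33% of its total. A short non-coding model of 519 bases received 153.9 of the 169.9 reads.

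Both of these models contain stretches that occur in transcripts of many other genes, and the stretch of Ltbp1 is shown because the model that holds it received most of that gene's reads. In the Ltbp1 non-coding model, 183 of 489 words of 31 bases (37.4%) also occurred in models of 196 other genes. In the Tgfb1 retained-intron model, 118 words (4.64%) occurred in models of 885 other genes. The sequence is that of the first 300 bases of exon 3 of the Ltbp1 model, at chr17:75008420-75008719 (mm10), 5′ to 3′ on the plus strand. Capitals mark the 274 bases that lie in shared words.
Ltbp1 non-coding model: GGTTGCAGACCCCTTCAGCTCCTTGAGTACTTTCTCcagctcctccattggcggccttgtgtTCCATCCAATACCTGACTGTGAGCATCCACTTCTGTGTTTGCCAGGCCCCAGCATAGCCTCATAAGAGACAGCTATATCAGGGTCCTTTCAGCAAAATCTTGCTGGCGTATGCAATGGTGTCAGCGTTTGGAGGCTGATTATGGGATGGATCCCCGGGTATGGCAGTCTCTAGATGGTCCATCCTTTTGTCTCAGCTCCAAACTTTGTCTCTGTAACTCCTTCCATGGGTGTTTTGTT

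Most bases of this stretch are thus shared with other genes. A read from shared stretches of either model cannot be placed by its letters alone, and the part of such reads in the counts of Ltbp1 and Tgfb1 was not tested. A processed pseudogene also overlaps Ltbp1.

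**Figure D2:**
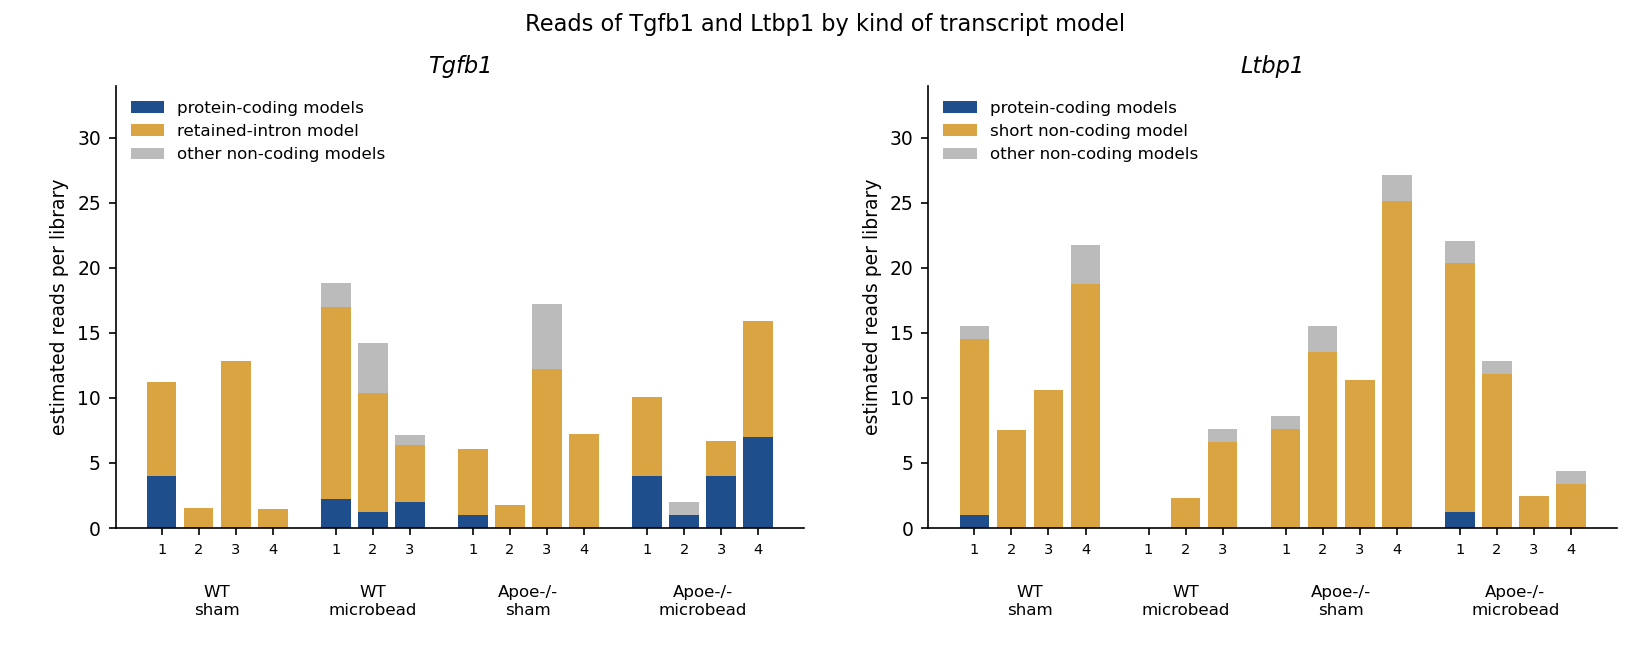
Estimated reads of Tgfb1 (left) and Ltbp1 (right) in each library, numbered within its group, split into protein-coding models (blue), the main non-coding model (yellow) and other non-coding models (grey). Coding reads reach at most 7 for Tgfb1 and 1.26 for Ltbp1 in any library.

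The ligand Tgfb1 was counted at a few reads per library. In wild-type sham libraries its level was 15.98, 3.34, 14.9 and 2.06 CPM, and in wild-type microbead libraries 26.3, 13.4 and 8.93 CPM. In Apoe-/- sham libraries it was 13.6, 8.47, 28.3 and 17.5 CPM, and in Apoe-/- microbead libraries 19.8, 5.23, 12.98 and 23.8 CPM. All 4 groups overlapped, and each of the 3 groups of 4 held a library with 1 or 2 reads.

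On the log2 scale the fold change of Tgfb1 with microbeads was 0.72 (SE 0.60) in wild type and -0.17 (SE 0.57) in Apoe-/-. The adjusted p was 0.803 and 0.963 by edgeR's quasi-likelihood test with Benjamini-Hochberg adjustment over 6521 genes. Reads on the coding model alone were 4, 0, 0 and 0 after sham and 2.20, 1.202 and 2 after microbeads in wild type, with 1, 0, 0 and 0 after sham and 4, 1, 4 and 7 after microbeads in Apoe-/-. These coding reads were present in every microbead library of either genotype and in 1 sham library of each. At 26.4 reads in all, this is a description of counts near the limit of detection, with no test. Without the retained-intron model the gene kept 39 reads in 10 libraries and no longer passed the filter on low counts.

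The value of Tgfb1 depended on the scale. On log2(TPM + 1), tested with limma on the same genes, its difference in wild type was 1.97 (SE 0.49) with an adjusted p of 0.0498, against a range of 0.0498 to 1 over all alternatives tried. On that scale the median of all genes also moved, by 0.59. In TPM the wild-type microbead libraries were listed at 6.18, 8.56 and 6.29 and the wild-type sham libraries at 2.18, 0.290, 2.17 and 0.275. Those groups did not overlap in TPM, as was the case for 22.1% of the 6470 tested genes in that table, while they overlapped in CPM. With offsets for transcript length in edgeR the value was 1.84 (SE 0.67, adjusted p 0.560). Without wild-type microbead library 1 it was 0.22 in CPM.

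Nrros, also called Lrrc33, which displays latent TGF-beta1 on microglia, was well above background. It lies at chr16:32142785-32165594 on the minus strand, and 98.5% of its 678 estimated reads were given to coding models. Its level was 66.8, 78.6, 83.6 and 96.7 CPM in wild-type sham and 65.1, 66.0 and 79.1 CPM in wild-type microbead libraries. In Apoe-/- sham it was 52.3, 12.7, 81.6 and 72.3 CPM, and in Apoe-/- microbead 59.5, 88.8, 74.2 and 116 CPM. Apoe-/- sham library 2, with 3 reads of Nrros and the smallest scaled size of all libraries, stood alone at the low end, and the groups overlapped.

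With microbeads the log2 fold change of Nrros was -0.21 (SE 0.35) in wild type and 0.57 (SE 0.34) in Apoe-/-, with adjusted p of 0.924 and 0.746 by the edgeR test. The difference between these responses was 0.78 (SE 0.49, adjusted p 1.00 by edgeR). Without Apoe-/- sham library 2 the value in Apoe-/- was 0.30.

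Ltbp1, whose protein ties latent TGF-beta to the matrix, had wider differences than the other tested members with microbeads in either genotype and between genotypes in microbead libraries, while between genotypes in sham libraries Tgfb1 was slightly wider. Its level was 23.2, 13.4, 12.6 and 45.3 CPM in wild-type sham libraries and 0, 1.91 and 10.2 CPM in wild-type microbead libraries. In Apoe-/- sham it was 20.5, 67.8, 18.3 and 67.3 CPM, and in Apoe-/- microbead 43.6, 33.96, 3.71 and 5.96 CPM. The wild-type groups did not overlap, as was the case for 10.6% of all genes tested in that comparison, and the Apoe-/- groups overlapped.

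In wild type the log2 fold change of Ltbp1 was -2.46 (SE 0.89, unadjusted p 0.0122), which did not pass after adjustment over all genes (adjusted p 0.505 by edgeR). It was -0.98 (SE 0.70, adjusted p 0.764 by edgeR) in Apoe-/-, and the difference between the responses was 1.48 (SE 1.13, adjusted p 1.00 by edgeR). Without any filter on low counts, the wild-type value was -2.40 with an adjusted p of 0.0102, against a range of 0.0102 to 1 over all alternatives. Leaving out 1 library at a time gave -4.12 (without wild-type microbead library 3) to -1.97 (without wild-type microbead library 1), with no adjusted p below 0.385 by edgeR.

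Between genotypes the value was 0.85 (SE 0.67, adjusted p 0.743 by edgeR) in sham and 2.33 (SE 0.91, unadjusted p 0.0194, adjusted p 0.626 by edgeR) in microbead libraries, whose groups overlapped. These values are those of the non-coding model. It held 50.5 of the reads after sham and 8.91 after microbeads in wild type, with 57.7 after sham and 36.8 after microbeads in Apoe-/-. Without it the gene kept 16 reads in 9 libraries and did not pass the filter. The share of satellite reads was also lowest in wild-type microbead libraries, and the summed level of 6 platelet markers was 6.17 to 34.9 CPM in wild-type sham and 1.39 to 7.66 CPM in wild-type microbead libraries. The summed level of 12 rod photoreceptor markers was 699 to 2772 CPM in wild-type sham and 177 to 733 CPM in wild-type microbead libraries. Of 11 tested rod markers, 0 were positive in wild type (median -1.90) and 11 between genotypes in microbead libraries (median 1.57). With the rod level as a covariate the value of Ltbp1 in wild type was -2.68 (SE 1.05, adjusted p 0.786 by edgeR). The part of the satellite share and of platelets in the values of Ltbp1 was not tested.

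Tgfbr1, the type I receptor kinase, lies at chr4:47353222-47414931 on the plus strand and had the second highest read total, 1917. Its level was 264, 234, 219.9 and 233 CPM in wild-type sham and 234, 150.3 and 157 CPM in wild-type microbead libraries. In Apoe-/- sham it was 234, 165, 265 and 197 CPM, and in Apoe-/- microbead 228, 193, 172 and 267 CPM. In wild type 2 of 3 microbead libraries lay below all sham libraries, but the other lay among the sham libraries, and the Apoe-/- groups covered the same range.

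For Tgfbr1 the log2 fold change was -0.40 (95% interval -0.95 to 0.15) in wild type and -0.01 (-0.52 to 0.50) in Apoe-/-. The adjusted p was 0.746 and 0.999 by edgeR. The intervals leave room for a change of up to -0.95 in wild type, so equal levels were not shown. On log2(TPM + 1) the wild-type value was 0.37, that is of the opposite sign, where the median of all genes was 0.59.

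Tgfbr2, the type II receptor that binds the ligand, lies at chr9:116084293-116175360 on the minus strand and had the highest read total, 2020. Its level was 196, 261, 306 and 189 CPM in wild-type sham and 234, 271 and 242 CPM in wild-type microbead libraries. In Apoe-/- sham it was 202, 174, 228 and 155 CPM, and in Apoe-/- microbead 175, 206, 182 and 199.7 CPM. All 4 Apoe-/- microbead libraries lay below all 3 wild-type microbead libraries, as was the case for 6.87% of all genes tested, in whichever direction, and the sham groups overlapped.

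The log2 fold change of Tgfbr2 with microbeads was 0.06 (95% interval -0.45 to 0.58) in wild type and 0.00 (-0.49 to 0.49) in Apoe-/-. Between genotypes it was -0.32 (-0.81 to 0.16) in sham and -0.39 (-0.91 to 0.13) in microbead libraries, with adjusted p of 0.713 and 0.758 by edgeR. On log2(TPM + 1) these were -0.97 and -1.45 (adjusted p 0.535 and 0.0583 by limma), where the median of all genes was -0.30 and -0.73. With offsets for transcript length they were -0.66 and -0.62. The share of satellite reads differs between wild-type and Apoe-/- microbead libraries (40.8 to 53.5% against 55.4 to 70.7%), and its part was not tested.

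Within a library the read ratio of Tgfbr1 to Tgfbr2 does not depend on scaling. It was 0.719 to 1.35 after sham and 0.554 to 0.998 after microbeads in wild type, with 0.970 to 1.27 after sham and 0.931 to 1.33 after microbeads in Apoe-/-. The lowest values, 0.554 and 0.645, were in wild-type microbead libraries 2 and 3, and sham library 3 followed with 0.719. This ratio was looked at after the values were known and carries no test.

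The deposited tables also separate transcript forms of the receptors, the members with the most reads. Of the 1916 estimated reads of Tgfbr1, 1713 were given to 1 coding model of 5756 bases. A further 146 were given to a coding model that starts at another first exon. Another coding model, with 54.7 reads, lacks 12 bases at the start of exon 3 (chr4:47393247-47393258). Tgfbr2 has 2 models, both coding. The longer (8092 bases) carries a 75-base coding exon 2 (chr9:116158271-116158345) that the shorter (3476 bases) skips, and its last exon is 6265 bases long against 1629. The exon that distinguishes the 2 receptor proteins is shown in capitals between its flanking exon bases, followed by the junction without it, and then the 12 bases at the start of exon 3 of Tgfbr1 in capitals, each 5′ to 3′ on its gene's strand.
Tgfbr2 with exon 2: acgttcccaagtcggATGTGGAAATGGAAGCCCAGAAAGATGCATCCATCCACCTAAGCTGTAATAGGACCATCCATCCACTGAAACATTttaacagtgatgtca
Tgfbr2 without exon 2: acgttcccaagtcggttaacagtgatgtca
Tgfbr1 start of exon 3: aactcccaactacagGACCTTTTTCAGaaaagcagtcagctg

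The exon adds a stretch to the part of the type II receptor that faces the ligand. The model with exon 2 was given 1128 and the model without it 892 of the Tgfbr2 reads. The share of the model without exon 2 was 59.9, 54.1, 46.9 and 48.9% in wild-type sham and 46.5, 53.1 and 52.6% in wild-type microbead libraries. It was 46.4, 0, 31.3 and 28.9% in Apoe-/- sham and 24.0, 48.4, 33.3 and 24.7% in Apoe-/- microbead libraries. Of the 8 Apoe-/- libraries, 7 lay below every wild-type library, although sham library 1 did so only narrowly, and microbead library 2 lay inside the wild-type range.

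The median share was 52.6% over 7 wild-type and 30.1% over 8 Apoe-/- libraries, and within a genotype the sham and microbead libraries overlapped. The level of the model without exon 2 had a median of 129 CPM after sham and 128 CPM after microbeads in wild type, with 57.8 CPM after sham and 54.8 CPM after microbeads in Apoe-/-. That of the model with exon 2 had medians of 109, 125, 133 and 127 CPM in the same order. The pattern was picked out of 42 models with reads after the values were seen, so no test is given. The model with exon 2 has 144 words of 31 bases (1.79%) that occur in models of 4420 other genes, and the letter in the table names goes with genotype. The 2 models also differ in their last exon, of 6265 bases with exon 2 and 1629 bases without it. Reads on exon 2 or across its junction were not counted, so the share is that of whole models. Tgfbr2 had 92.4 to 283 estimated reads per library in wild type and 40.5 to 137 in Apoe-/-, where sham library 2 had the fewest. How often the shares of other models separate the genotypes in this way was not counted. The parts of read number, of the last exon and of shared words were not tested, and that of the letter cannot be told apart from genotype.

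**Figure D3:**
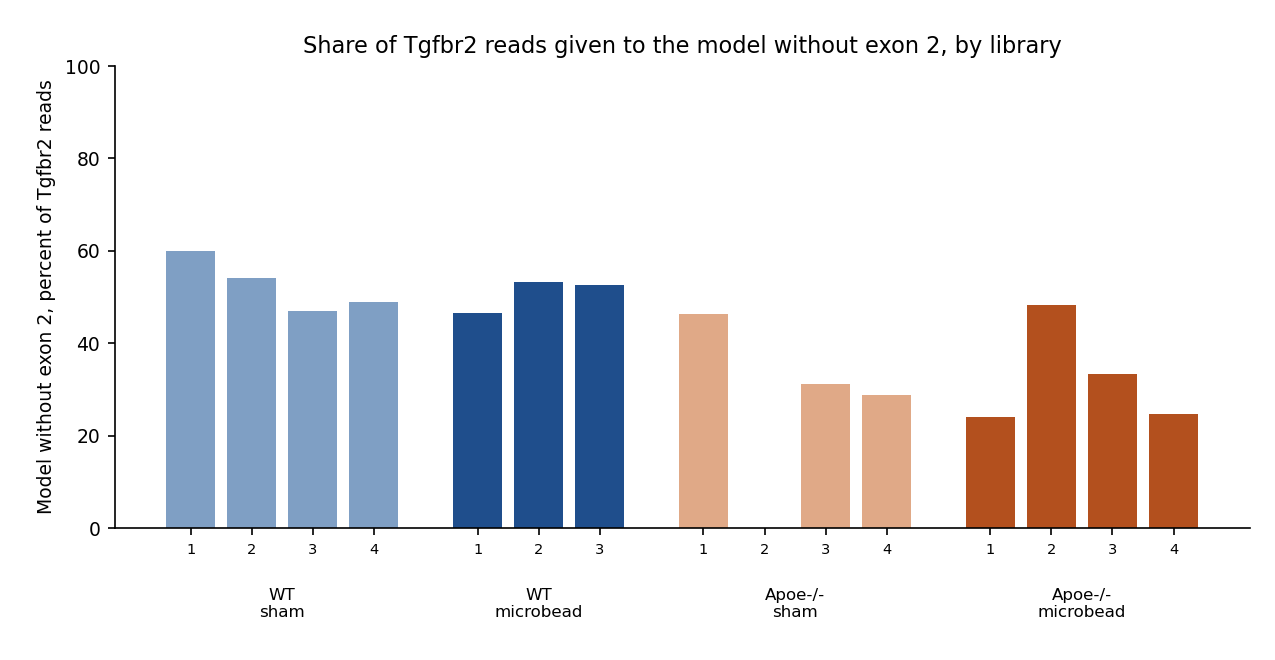
Share of Tgfbr2 reads given to the model without exon 2 (percent of the reads of both models) in each library, numbered within its group. The models also differ in the length of their last exon. Wild-type libraries lie between 46.5 and 59.9%, and Apoe-/- libraries between 0% (sham library 2) and 48.4%.

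Smad3, which carries the signal from the receptors to DNA, had 352 reads (chr9:63646767-63757994, minus strand), 97.4% of them on coding models. Its level was 52.3, 23.4, 60.7 and 24.7 CPM after sham and 36.02, 36.4 and 52.3 CPM after microbeads in wild type, with 40.9, 33.9, 38.3 and 24.9 CPM after sham and 19.8, 39.2, 35.2 and 43.2 CPM after microbeads in Apoe-/-. The wild-type sham libraries formed a high and a low pair that spanned all other groups but Apoe-/- microbead library 1. The log2 fold change was 0.01 (95% interval -0.73 to 0.75) in wild type and -0.01 (-0.77 to 0.74) in Apoe-/-.

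Smad2, the other receptor-activated Smad, had 175 reads (chr18:76241580-76310963, plus strand). Its level ranged from 18.3 to 28.8 CPM after sham and 15.3 to 28.1 CPM after microbeads in wild type, with 11.4 to 22.4 CPM after sham and 7.42 to 26.8 CPM after microbeads in Apoe-/-. The log2 fold change was -0.20 (SE 0.39) in wild type and -0.19 (SE 0.42) in Apoe-/-, so the microbead groups of both genotypes had slightly lower means, within the spread.

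Smad4, the common partner of Smad2 and Smad3, had 82 reads (chr18:73639009-73703780, minus strand) and missed the filter. It had reads in all 15 libraries, between 2 and 14 in each. Its level was 4.58 to 13.1 CPM after sham and 3.83 to 7.66 CPM after microbeads in wild type, with 4.55 to 25.4 CPM after sham and 7.45 to 26.0 CPM after microbeads in Apoe-/-. In 5 of the 15 libraries it had 3 reads or fewer, at or under the limit set by a count of 0. A processed pseudogene overlaps it.

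Smad7, the inhibitory Smad that is itself induced by the pathway, had 139 reads (chr18:75367529-75395935, plus strand). Its level was 8.72, 8.36, 20.6 and 8.23 CPM in wild-type sham and 23.6, 23.9 and 10.2 CPM in wild-type microbead libraries. In Apoe-/- sham it was 18.2, 12.7, 23.3 and 4.99 CPM, and in Apoe-/- microbead 11.9, 20.9, 12.98 and 11.9 CPM. In wild type 2 of 3 microbead libraries lay above all sham libraries, and the third lay between the sham values. The log2 fold change was 0.69 (SE 0.48, adjusted p 0.753 by edgeR) in wild type and -0.13 (SE 0.50, adjusted p 0.967 by edgeR) in Apoe-/-, and the difference of -0.82 (SE 0.70) had an adjusted p of 1.00 by edgeR. Without wild-type sham library 3 the wild-type value was 1.16. On log2(TPM + 1) it was 1.17 (adjusted p 0.0887 by limma), on log2(TPM + 0.1) 1.73, and with offsets for transcript length 1.07.

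Ski, the nuclear repressor of Smad complexes, had 820 reads (chr4:155154075-155222592, minus strand). Of these, 77.3% were given to a non-coding model that shares its last 6 exons with the coding models and differs in a first exon of 40 bases. Its level ranged from 82.3 to 115 CPM after sham and 74.0 to 98.6 CPM after microbeads in wild type, with 59.8 to 102 CPM after sham and 72.3 to 115 CPM after microbeads in Apoe-/-. The log2 fold change was -0.20 (SE 0.25) in wild type and 0.23 (SE 0.25) in Apoe-/-, and all groups overlapped.

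**Figure D4:**
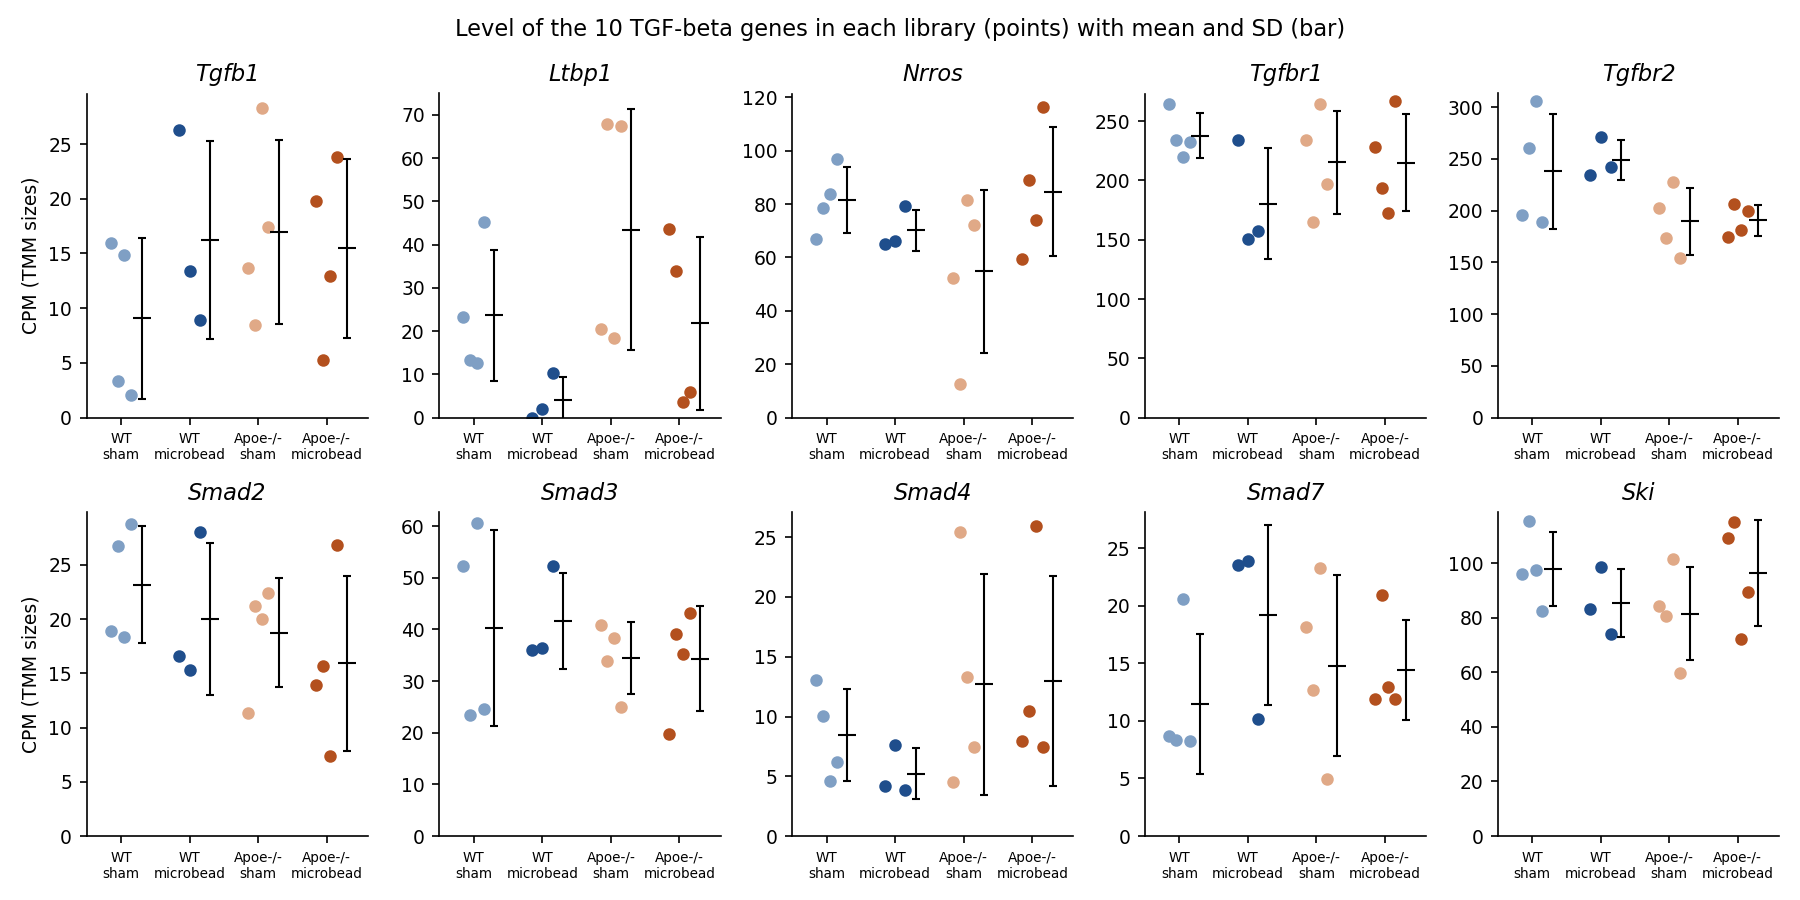
Level of each gene (CPM on TMM-scaled sizes) in every library, as points by group, with a bar at the mean and whiskers of 1 SD. Groups overlap for each tested gene within both genotypes except Ltbp1 in wild type, where sham libraries lie at 12.6 to 45.3 CPM and microbead libraries at 0 to 10.2 CPM.

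Taking the 9 tested genes as a list, none passed the test in any of the 5 comparisons. In wild type, microbead against sham, 0 of 9 were called where 0.199% of all genes were (13 of 6521, all higher). The log2 fold changes were positive for 4 of the 9, with a median of -0.20 beside -0.01 for all genes, and 1 gene, Ltbp1, had an unadjusted p under 0.05, as had 7.88% of all genes. DESeq2 called 36 genes in that comparison, none of them a member.

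In Apoe-/-, microbead against sham, 0 of 9 were called where 0% of all genes were. There 3 were positive, with a median of -0.01 beside 0.01 for all genes. At an unadjusted p under 0.05 edgeR gave 454 genes and DESeq2 432, with 0 after adjustment by DESeq2 as well, and none of the 9 was among edgeR's.

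For the difference between the responses 0 of 9 were called where 0% of all genes were, with 5 positive and a median of 0.01 beside 0.00 for all genes. Here 221 genes had an unadjusted p under 0.05 by edgeR and 198 by DESeq2, and DESeq2 also called 0 after adjustment. Between genotypes 0 of 9 were called where 0.0153% of all genes were in sham (1 gene) and 0.046% in microbead libraries (3 genes). The medians were -0.24 and 0.00, beside -0.01 and 0.01 for all genes. At an unadjusted p under 0.05 edgeR gave 564 and 468 genes and DESeq2 557 and 462, of which 0 and 1 (Ltbp1) were members by edgeR.

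Shares this low mean that few genes of any kind were called, so a count of 0 of 9 is near the background and says little of these genes in particular. A p above the threshold does not show that levels were equal. The precision differed by gene. For Tgfbr1, Tgfbr2 and Ski the SE of a microbead response was 0.24 to 0.26, while for Tgfb1 and Smad7 it was 0.48 to 0.60. It was widest for Ltbp1, at 0.89 in wild type and 0.70 in Apoe-/-.

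**Figure D5:**
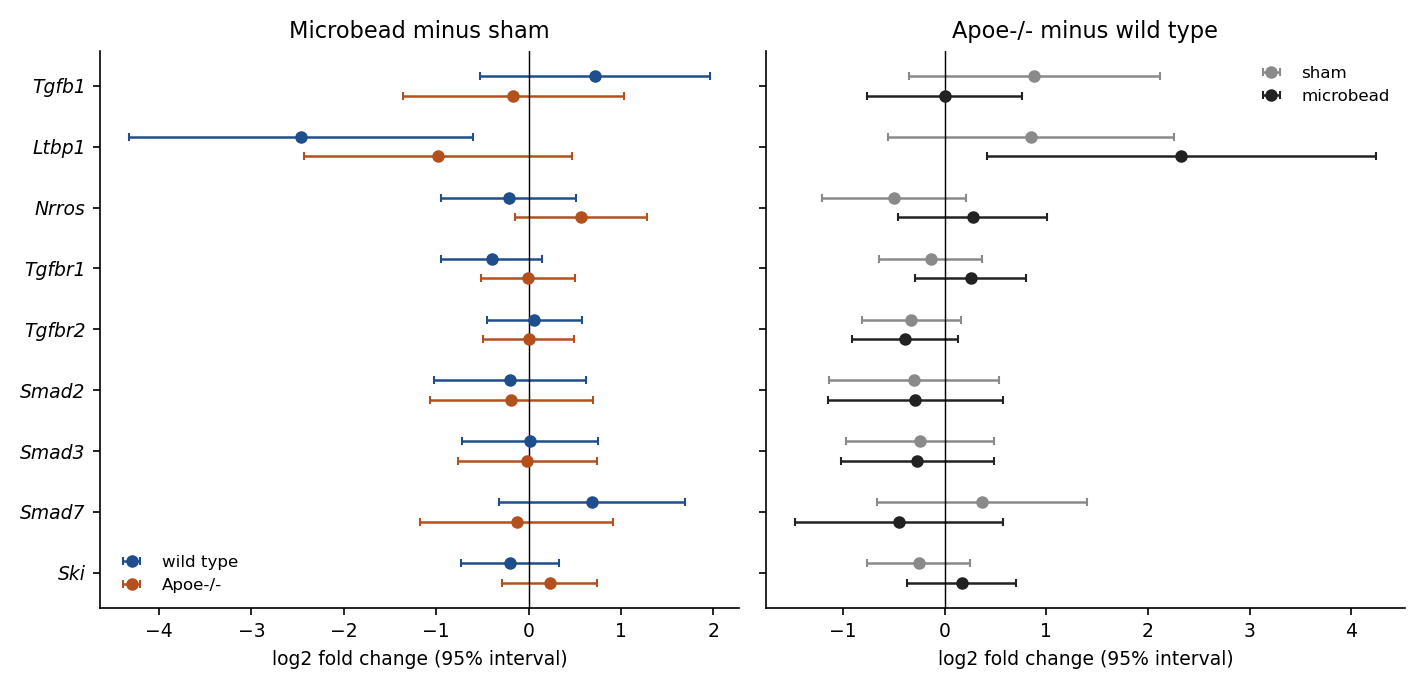
Log2 fold change with 95% interval of the 9 tested genes, for microbead minus sham in wild type (blue) and Apoe-/- (orange) on the left and for Apoe-/- minus wild type in sham (grey) and microbead libraries (black) on the right. The intervals include 0 except for Ltbp1 in wild type (-4.32 to -0.60) and between genotypes in microbead libraries (0.42 to 4.24), neither of which passed after adjustment. For Tgfb1 between genotypes in microbead libraries the SE behind the interval is 0.36, where DESeq2 gave 0.63.

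The direction of these medians depended on the scale. On log2(TPM + 1), where the median of all genes was 0.59 in wild type, 0.18 in Apoe-/-, -0.30 between genotypes in sham and -0.73 in microbead libraries, 8, 6, 2 and 1 of the 9 genes were positive. Set against those medians, 4 of the 9 lay above the median of all genes in each of the 4 comparisons.

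Of 108 other genes of the pathway in 7 lists, 59 were tested and none was called in any comparison. In wild type 32 of the 59 were positive with microbeads and in Apoe-/- 37. Among ligands, carriers and activators, 7 of 17 were tested, with 5 positive in wild type (median 0.12) and 2 in Apoe-/- (median -0.10). Tgfb2 had 5 reads and Tgfb3 15 reads in all libraries together, Ltbp2, Ltbp3 and Ltbp4 had 14, 21 and 6, and Lrrc32, the counterpart of Nrros on regulatory T cells, had 6.

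Itgav, the integrin subunit that with a beta partner releases TGF-beta from its latent complex, was lower in microbead libraries of both genotypes without passing the test. Its level was 29.1 to 38.4 CPM in wild-type sham and 12.4 to 20.8 CPM in wild-type microbead libraries, which on the log2 scale is -1.03 (SE 0.31, adjusted p 0.327 by edgeR). It was 26.6 to 34.1 CPM in Apoe-/- sham and 10.5 to 20.9 CPM in Apoe-/- microbead libraries, which on the log2 scale is -0.79 (SE 0.31, adjusted p 0.698 by edgeR). The sham and microbead groups did not overlap in either genotype, as was the case for 10.6% of all genes in wild type and 2.52% in Apoe-/-. Its partner Itgb5 was the most abundant gene of that list by CPM and had a log2 fold change of 0.06 (SE 0.31) in wild type and 0.03 (SE 0.29) in Apoe-/-. Mmp2, of the same list, was at 8.23 to 14.5 CPM in wild-type sham and 16.6 to 26.3 CPM in wild-type microbead libraries. On the log2 scale its value was 0.89 (SE 0.42, adjusted p 0.630 by edgeR) in wild type and -0.02 (SE 0.45) in Apoe-/-.

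Of genes that act at the receptors, 11 of 16 were tested and 4 were positive in wild type and 3 in Apoe-/-. The co-receptor Eng had values of -0.61 (SE 0.37) and -0.35 (SE 0.36), and Pmepa1, which limits Smad activation, -0.37 (SE 0.26) and -0.31 (SE 0.26), in wild type and Apoe-/- respectively. Of the other Smads and their nuclear partners, 9 of 18 were tested, with 6 positive in wild type and 8 in Apoe-/-. Tgif1, a repressor that binds Smad2, was at 20.3 to 35.1 CPM in wild-type sham and 51.3 to 80.4 CPM in wild-type microbead libraries (1.22, SE 0.42, adjusted p 0.452 by edgeR). Its value in Apoe-/- was 0.49 (SE 0.44). Skil, the close relative of Ski, had values of 0.57 (SE 0.37) and 0.31 (SE 0.36). Hdac1 had 1.01 (SE 0.41) and 0.37 (SE 0.43), and Ep300 0.13 (SE 0.27) and 0.68 (SE 0.27), in wild type and Apoe-/- respectively.

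Of 15 genes used as readouts of Smad activity, 6 were tested. All 6 were positive in each genotype, where 49.2% of all genes were in wild type and 50.8% in Apoe-/-. The medians were 1.16 in wild type and 0.95 in Apoe-/-, and none was called. Cdkn1a, a cell cycle inhibitor, was at 2.06 to 15.04 CPM in wild-type sham and 24.9 to 55.5 CPM in wild-type microbead libraries (1.84, SE 0.61, adjusted p 0.449 by edgeR). Id2, an inhibitor of helix-loop-helix factors, had a value of 1.52 (SE 0.57) and Klf10, an early target of TGF-beta, 1.90 (SE 0.79). In Apoe-/- these were 0.76 (SE 0.70) for Cdkn1a, 1.51 (SE 0.71) for Id2 and 1.71 (SE 0.97) for Klf10. Klf10 had 14 reads after sham and 51 after microbeads in wild type, with 5 and 22 in Apoe-/-. In the same order Cdkn1a had 32, 112, 17 and 39 reads and Id2 had 55, 157, 14 and 56. Genes this low after sham can pass the filter on low counts through their microbead libraries alone, which favours a positive sign. The 6 tested of 15 are those that passed this filter, so their signs beside all genes are a description and not a test.

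A list of 10 genes that rise with cell isolation (Fos, Egr1 and others), which shares Junb with the readouts, was likewise positive for 9 of 9 tested in each genotype, with medians of 1.11 and 1.397. Its summed level was 152 to 3327 CPM in wild-type sham and 1158 to 7430 CPM in wild-type microbead libraries. It was 134 to 2057 CPM in Apoe-/- sham and 90.9 to 7644 CPM in Apoe-/- microbead libraries. Its part in the readouts was not tested.

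Microglial genes known to need TGF-beta were all tested, 19 of 19. In wild type 7 were positive, with a median of -0.20, and in Apoe-/- 13, with a median of 0.07, beside -0.01 and 0.01 for all genes. None was called, and the difference between the responses was positive for 14, with a lowest adjusted p of 1.00 by edgeR. Between genotypes, Apoe-/- against wild type, 2 were positive in sham libraries (median -0.35) and 9 in microbead libraries (median -0.09). Of all genes 48.9% were positive in sham libraries (median -0.01) and 50.9% in microbead libraries (median 0.01). The positive differences thus go with lower values in Apoe-/- sham libraries. How far these values rest on Apoe-/- sham library 2, the smallest by scaled size, was not examined.

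Gpr34, a lysophospholipid receptor, was at 294 to 427 CPM in wild-type sham and 165 to 181 CPM in wild-type microbead libraries (-0.96, SE 0.34, adjusted p 0.478 by edgeR). Its value in Apoe-/- was -0.30 (SE 0.31). Slc2a5, a fructose transporter, had values of -0.99 (SE 0.33) and -0.64 (SE 0.31), and Siglech -0.66 (SE 0.28) and 0.05 (SE 0.26). Other genes of the list had positive values in Apoe-/- or in both genotypes. Fcrls, the receptor used for the sort, had 0.35 (SE 0.36) in wild type and 0.77 (SE 0.34, adjusted p 0.698 by edgeR) in Apoe-/-. Gas6, a ligand of receptors for dying cells, had -0.23 (SE 0.28) and 0.79 (SE 0.28, adjusted p 0.698 by edgeR), with a difference of 1.02 (SE 0.40, adjusted p 1.00 by edgeR). In sham libraries, Apoe-/- against wild type, Gas6 had -0.81 (SE 0.28) and Fcrls -0.59 (SE 0.34), with adjusted p of 0.558 and 0.633 by edgeR. The abundant Csf1r, the receptor that microglia need to survive, had a value of -0.07 (SE 0.31) in wild type. In bulk samples fewer cells that make a transcript and less of it per cell cannot be told apart.

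Of genes that act outside the Smads, 6 of 7 were tested, with 3 positive in wild type and 5 in Apoe-/-. Of the sister branch of bone morphogenetic proteins and activins, 1 of 16 genes was tested, the receptor Bmpr2, with a log2 fold change of 0.05 (SE 0.33) in wild type and -0.52 (SE 0.33) in Apoe-/-. Noggin (Nog) had 0 reads and Grem1 had 1 read in all libraries together, so the ligands and inhibitors of that branch could not be compared at this depth.

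The genes whose pattern over the 15 libraries was nearest to that of Tgfbr1 were Selplg, Arap3 and Srgap2, with a mean absolute difference of centred log2 CPM of 0.14 each, where the median over 1401 candidates was 0.39. For Tgfb1 they were Rcbtb2 (0.42), Dcaf8 (0.44) and Ikzf1 (0.45), where the median was 0.69. The distance for Tgfb1 is thus larger than the median candidate's distance to Tgfbr1, and the points share libraries, depth and scaling.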

How the data were processed

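RNA of sorted retinal microglia was measured in 15 libraries. Per the file headers, the authors deposited Salmon tables of estimated counts, TPM and effective length in bases per transcript, and a gene TPM table for the series. Salmon 1.4.0, DESeq2 1.30.1 and R 4.0.3 are named in the submitters' processing notes, with mm10 as build. Annotation release and read filters were not given in the sources used here. Deposited estimated counts of 116023 of 116945 transcripts were summed per gene with GENCODE M21 on mm10 and rounded. The rest held 0.217 to 0.354% of reads and were left out. TPM summed in the same way matched 99.72% of the authors' deposited gene values at a relative tolerance of 0.001. Deposited effective lengths, in bases, served as length offsets in 1 alternative.

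The test was edgeR 4.0.16 on R 4.3.3 (quasi-likelihood F-test, TMM, filterByExpr), in 1 model of 15 libraries in 4 groups with 5 contrasts. The biological coefficient of variation was 34.4%. P-values are two-sided and adjusted by Benjamini-Hochberg over 6521 genes, with a threshold of 0.05. The SE of an edgeR value is its absolute log2 fold change divided by the square root of its F statistic, and intervals follow from it. Such an SE can be off where the fold change is near 0. The alternatives were DESeq2 1.42.0, limma 3.58.1 on log2(TPM + 1) and log2(TPM + 0.1), other scalings, filters and covariates, and leaving out each library. Scripts were tested on simulated data. Shared words of 31 bases were searched on both strands of all transcript models. Sequences were read from the GENCODE transcripts.

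Members and gene lists were chosen with earlier results of these data known. All 10 members are named. From each pathway list the rule named the 2 tested genes with the smallest p in each of the 3 microbead contrasts and the 2 with the highest mean CPM, of which a selection is described. Genes with too few reads to test were picked for mention after their counts were seen. The nearest patterns were taken among genes with a mean of at least 50 CPM. Some items are not reported here.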

Additional observations from a re-analysis of the deposited data

Results flagged for a closer look

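In 3 of 30 groups of 4 libraries, 1 library lay far from the other three of its group, by Dixon's criterion at the 95% level, which chance passes in about 1 in 20 groups. Smad4 was at 25.96 CPM in Apoe-/- microbead library 3, where the others of the group lay at 7.45 to 10.5 CPM. Smad7 was at 20.61 CPM in wild-type sham library 3, where the others lay at 8.23 to 8.72 CPM. Smad7 was also at 20.9 CPM in Apoe-/- microbead library 2, where the others lay at 11.9 to 12.98 CPM. The wild-type microbead group, with 3 libraries, was not examined in this way.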

How the results depend on the processing

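The 45 member values (9 genes in 5 comparisons) were recomputed under 26 alternatives, 25 of them planned and 1, which leaves out the main non-coding models of Ltbp1 and Tgfb1, chosen after seeing the data. Of 1165 recomputed values 109 changed sign, 6 of them where the reported value exceeded its SE, and 2 passed the threshold: Ltbp1 in wild type with no filter on low counts (-2.40, adjusted p 0.0102 by edgeR) and Tgfb1 in wild type on log2(TPM + 1) (1.97, adjusted p 0.0498 by limma). Another 7 values, all between genotypes in microbead libraries with DESeq2 and Ltbp1 among them, got no adjusted p and were not judged. The 6 were all on log2 TPM, with a pseudocount of 1 and 0.1: Tgfbr1 in wild type at 0.37 and 0.39, Tgfbr1 for the difference between responses at -0.14 and -0.14, and Ski for that difference at -0.0787 and -0.0507. The median of the 9 genes moved on those scales to 0.48 and 0.54 in wild type and to -0.76 and -0.94 between genotypes in microbead libraries. The cause of these shifts was not tested.

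Genes called in wild type numbered 13, and 36 with DESeq2, 126 with no filter, 5 when 10 or more reads were required in 7 or more libraries, 7 with length offsets, 87 and 22 on log2 TPM with pseudocounts of 1 and 0.1, and 5 with the rod markers as a covariate. Calls between genotypes in microbead libraries numbered 3, and 26, 73, 1, 1, 195 and 6 under those settings up to TPM. With no filter, 36 genes were called in Apoe-/-, 45 for the difference between responses and 41 between genotypes in sham libraries. The difference between responses had 5 calls on log2(TPM + 1) and 1 with the rod covariate, which gave 3 between genotypes in sham libraries.

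Leaving out 1 library gave 0 (without wild-type microbead library 2) to 29 calls (without wild-type microbead library 1) in wild type, and 28 without Apoe-/- sham library 2. Without wild-type sham libraries 1, 2, 3 and 4 the count was 1, 4, 2 and 4. Between genotypes in microbead libraries it ran from 1 to 7, the latter without Apoe-/- microbead library 2. Over these fits the median of the 9 genes ran from -0.21 to -0.03 in wild type, -0.14 to 0.10 in Apoe-/-, -0.09 to 0.31 for the difference, -0.31 to -0.11 between genotypes in sham and -0.30 to 0.14 in microbead libraries.

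With the retina number as a replicate block, 7 genes were called in wild type and 1 between genotypes in microbead libraries. Same-numbered libraries did not deviate together as a set (median correlation -0.008 over 21 pairs, range -0.166 to 0.223). These pairs include libraries of different genotypes, so the values do not decide whether the numbers pair retinas. Depth limits Smad4, Smad7, Tgfb1 and Ltbp1, at 82 to 171 reads each in 15 libraries.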
